A study of Mus musculus with 67 samples.

Results

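The genes described are those of the Bardet-Biedl syndrome (BBS) complexes and of intraflagellar transport (IFT), taken by gene symbol. Of 32 genes, 8 had a Bbs symbol, 14 had an Ift symbol, and 10 were named singly: Arl6, Ttc8, Cep290, Rpgr, Rpgrip1, Kif3a, Wdpcp, Mkks, Cluap1 and Traf3ip1. All 32 were among the 16930 genes of the retina table and among the 16714 genes of the RPE table, and all 32 passed the filter on low values in both tissues. The RNA came from photosensitive mice on the C57BL/6J background that lack both Abca4 and Rdh8, so the reference group carries the same double knockout as every other group. Retina and RPE, the retinal pigment epithelium, were each sampled in 4 groups. The reference group NB had 6 retina and 5 RPE libraries, and in each tissue there were 3 libraries at 6h, 4 at 1d and 4 at 3d. The labels do not spell out NB, and they do not say when the times begin. NB is used here as a name for the reference. Ages and sexes are not given in the labels, and a library holds the pooled eyes of 1 mouse. P-values measure the spread between these libraries.

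The outer segment of a photoreceptor is a greatly enlarged cilium, joined to the cell body by a thin connecting cilium through which all outer segment proteins pass. IFT trains carry cargo along that cilium: the IFT-B complex moves outward with kinesin motors, and the IFT-A complex serves the return with dynein. The BBSome, a coat-like complex that rides on these trains, removes membrane proteins that do not belong in the outer segment. Mutations in many of these genes cause retinal degeneration, alone or as part of BBS.

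The libraries held 9.45 to 32.4 M (mega) reads. The 6h libraries and the NB libraries called A here (2 in retina, 1 in RPE) were the deeper ones, at 22.6 to 32.4 M in retina and 23.1 to 26.8 M in RPE, and all others held 9.45 to 15.2 M. Each of the 32 genes had at least 79 reads in every retina library and at least 43 in every RPE library. The summed level of 20 rod markers was 79857 to 88936 CPM (counts per M reads of the authors' effective library size) in NB retina, 49273 to 58937 at 6h, 25970 to 44427 at 1d and 42434 to 48990 at 3d, and 16, 20 and 19 of the 20 were lower than NB at these times. RPE libraries also carried rod transcripts, with sums of 5411 to 8419 CPM in NB, 6910 to 18501 at 6h, 4153 to 10954 at 1d and 6458 to 10717 at 3d. RPE markers summed to 13047 to 39025 CPM in RPE libraries and to 1504 to 2435 CPM in retina libraries. Of the 20 RPE markers, Best1 was not among the genes of the retina table.

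The RFX transcription factors bind a motif called the X-box in promoters of many cilium genes, so the promoters were read for it. RefSeq promoter entries (GRCm38.p6, 250 bases before to 50 after the start site of the entry) were found for 29 of the 32 genes. That start site is not always an end of the gene span. The windows of Ift74 (chr4:94614241-94614540) and Rpgrip1 (chr14:52110653-52110952), for instance, lie inside the spans of these genes. Stretches outside the windows were not searched. The inverted repeat GTTNCC, followed by 0 to 3 bases and GGNAAC, which reads the same on both strands, was in 2 of the 31 promoters of these genes (6.45%) and in 0.804% of all 32851 promoters of that length. The promoters holding it were those of Bbs7, a BBSome subunit gene on the minus strand at chr3:36613340-36613639, and of Ift57, an IFT-B gene on the plus strand at chr16:49699044-49699343. They are shown because these 2 genes moved in opposite directions in the retina at 1d, as described with their values. Capitals mark the inverted repeat, which began 121 bases before the start site of the Bbs7 entry and 60 bases before that of the Ift57 entry. The start site of the Bbs7 entry lies inside the gene span given with its values, and that of Ift57 is the first base of its span.
Bbs7: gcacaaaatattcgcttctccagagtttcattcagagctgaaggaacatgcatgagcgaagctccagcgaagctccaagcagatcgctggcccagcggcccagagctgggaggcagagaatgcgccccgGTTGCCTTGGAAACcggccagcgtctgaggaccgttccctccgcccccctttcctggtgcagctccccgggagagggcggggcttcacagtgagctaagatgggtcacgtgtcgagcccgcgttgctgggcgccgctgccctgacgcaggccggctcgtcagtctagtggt
Ift57: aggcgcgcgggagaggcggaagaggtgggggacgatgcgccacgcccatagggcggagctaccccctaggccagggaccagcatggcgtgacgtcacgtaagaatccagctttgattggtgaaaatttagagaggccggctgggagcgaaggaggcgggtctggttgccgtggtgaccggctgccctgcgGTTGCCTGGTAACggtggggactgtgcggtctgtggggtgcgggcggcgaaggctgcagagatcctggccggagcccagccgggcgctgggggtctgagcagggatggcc
A longer stretch from the same motif, GTTGCCA on either strand, was in 4 of the 31 promoters (12.9%), those of Bbs1, Ift27, Ift88 and Traf3ip1, and in 4.38% of all promoters. A match describes letters in this window only.

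In the retina most of these genes fell. Among roles with 3 or more genes, the median change was lowest for the BBSome subunit genes at 6h, and at 1d and 3d for the connecting cilium genes with the BBSome subunit genes next. The largest fall of a single gene was that of Bbs12, a chaperonin-like gene, at 6h. At 6h 22 of 32 were lower than NB and 0 were higher, at 1d 24 were lower and 2 higher, and at 3d 23 were lower and 0 higher (limma, adjusted p under 0.05 over all genes). The share of all 16926 tested genes that was lower was 18.5% at 6h, 27.5% at 1d and 23.9% at 3d, and the share that was higher was 16.9%, 24.0% and 19.3%, together 35.4%, 51.5% and 43.2%. Log2 fold changes are of CPM + 0.5, with the SE as their error. The median log2 fold change of the 32 genes was -0.32, -0.35 and -0.33, beside 0.00, -0.01 and -0.02 for all tested genes. Groups did not overlap with NB for 23, 23 and 20 of the 32, and for 34.6%, 34.4% and 31.3% of all tested genes. In bulk tissue, fewer cells of a type and less RNA per cell cannot be told apart, and rod marker levels fell at the same times by a median log2 of -0.68, -1.28 and -0.84. Their part in the result was not tested.

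**Figure D1:**
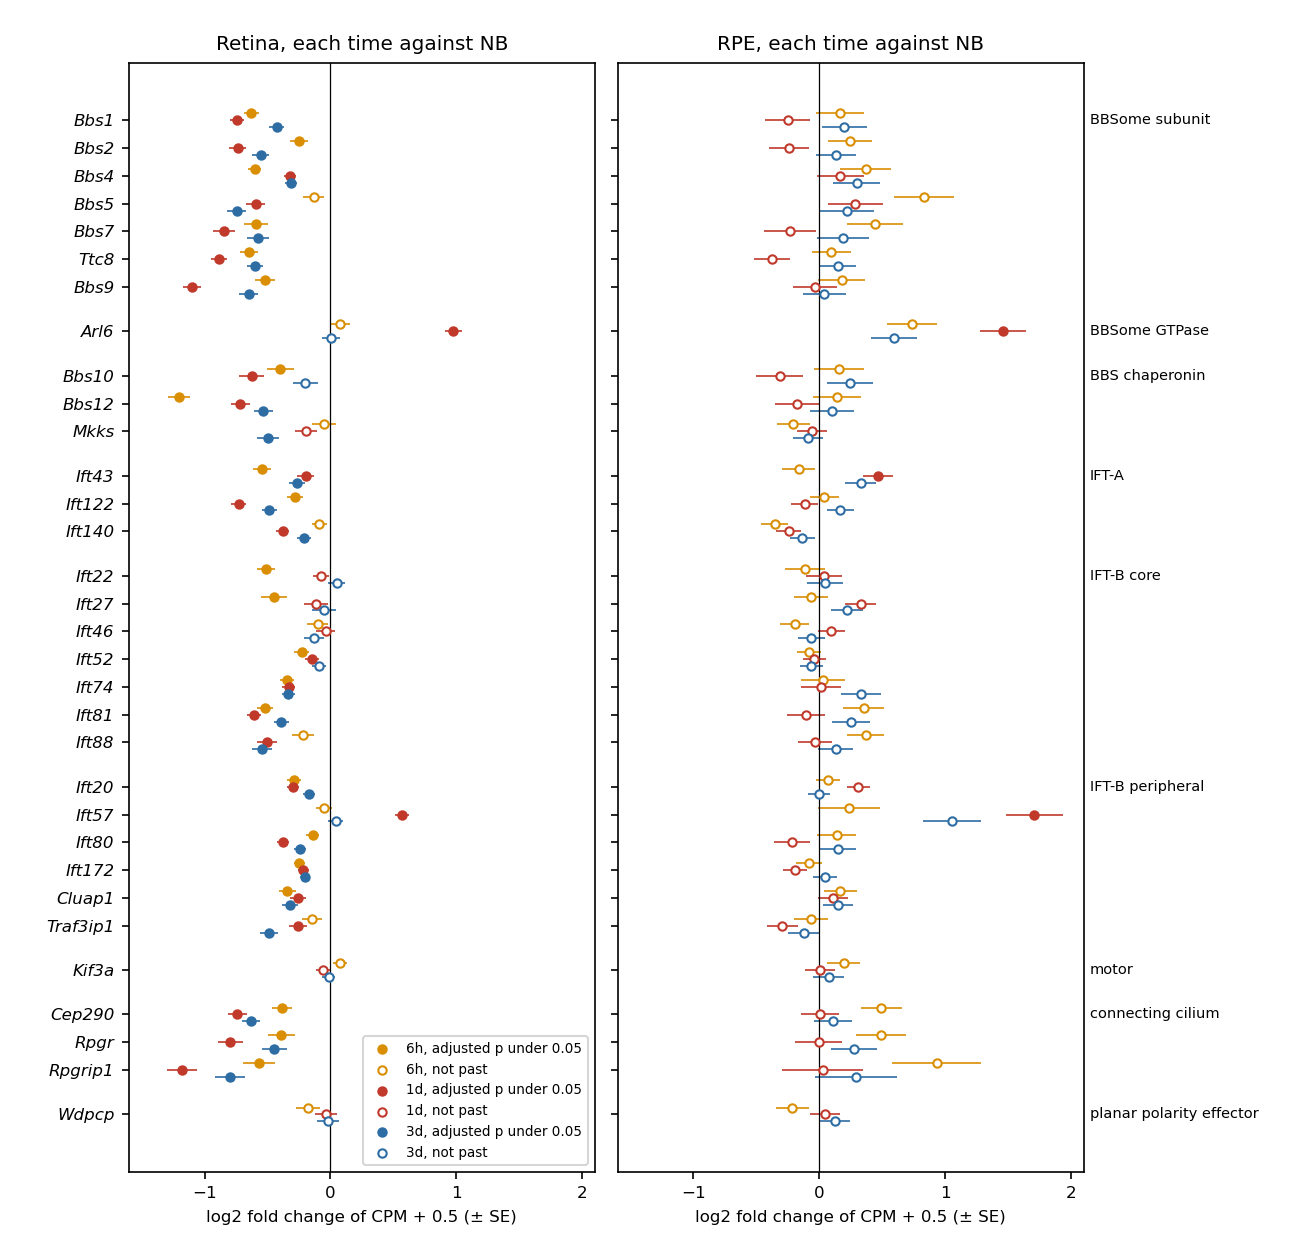
Log2 fold change of CPM + 0.5 against NB (± SE) for the 32 genes, in order of role, at 6h, 1d and 3d in retina (left) and RPE (right). Filled points passed the test. Most retina points lie left of 0, Arl6 and Ift57 lie right of 0 at 1d in both tissues, and the RPE points that passed are Arl6, Ift57 and Ift43 at 1d.

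Against NB libraries of their own depth, 21 were lower at 6h, 24 lower and 2 higher at 1d, and 23 lower at 3d. Scaled to the library total instead of the deposited effective library size, the median of all genes shifted by 0.16 at 1d and 0.14 at 3d on the log2 scale, and the higher share of all calls went from 46.5% to 74.3% and from 44.6% to 76.9%. The 32 genes then had 2 higher and 19 lower at 1d, and 3 higher (Ift22, Ift57 and Kif3a) and 18 lower at 3d. The calls lost were those of Cluap1, Ift43, Ift52, Ift172 and Traf3ip1 at 1d and of Ift20, Ift43, Ift80, Ift140 and Ift172 at 3d. The median of the 32 was then -0.19 at 1d and -0.18 at 3d, beside medians of 0.15 and 0.12 for all genes.

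All 7 BBSome subunit genes in the set were lower at 1d and at 3d, and 6 of the 7 were lower at 6h, with medians of -0.74, -0.57 and -0.59 on the log2 scale. Bbs9 (chr9:22475559-22888283 on GRCm38), which codes for a central subunit of the complex, ranged from 121 to 133 CPM with a median of 125 in the 6 NB retina libraries. It was 80.2, 92.3 and 89.5 CPM at 6h, 49.2, 61.9, 71.1 and 52.5 at 1d and 81.00, 77.3, 79.4 and 80.7 at 3d. Every later library was below every NB library, and the 1d libraries were the lowest. The log2 fold changes were -0.52 ± 0.08 SE, -1.10 ± 0.07 and -0.65 ± 0.07 (limma adjusted p = 4.99e-05, 3.84e-10 and 1.37e-06).

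Ttc8 (chr12:98920537-98983250), which codes for a repeat-rich subunit, ranged from 167 to 190.0 CPM with a median of 178 in NB retina. Its values were 108, 118 and 114 CPM at 6h, 79.5, 104, 109 and 93.8 at 1d and 116, 121, 116 and 115 at 3d. No later library reached the NB range, and its log2 fold changes were -0.65 ± 0.07 SE, -0.89 ± 0.07 and -0.60 ± 0.07 (adjusted p = 1.11e-06, 1.72e-09 and 1.04e-06). Bbs1 (chr19:4886878-4906653), the subunit through which the complex meets its recruiting GTPase, ranged from 159 to 172 CPM with a median of 163 in NB. It was 99.9, 109.9 and 110.0 CPM at 6h, 90.1, 95.8, 115 and 94.3 at 1d and 119.5, 133, 119.8 and 118 at 3d, again with no overlap with NB. Its log2 fold changes were -0.63 ± 0.06 SE, -0.74 ± 0.06 and -0.43 ± 0.06 (adjusted p = 2.94e-07, 2.54e-09 and 8.73e-06).

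Bbs7 (chr3:36573142-36613492), one of the X-box promoters printed above, ranged from 124 to 155 CPM with a median of 132 in NB. It was 86.5, 95.8 and 88.9 CPM at 6h, 59.8, 87.6, 85.8 and 72.8 at 1d and 85.9, 95.9, 91.1 and 93.3 at 3d. The groups did not overlap with NB, and the log2 fold changes were -0.59 ± 0.10 SE, -0.84 ± 0.09 and -0.57 ± 0.09 (adjusted p = 9.37e-05, 1.66e-07 and 4.11e-05). The subunit genes did not share a single course. Bbs4 (chr9:59321966-59353508), which codes for a subunit linked to centriolar satellites, was 161 to 182 CPM in NB, 112, 116 and 107 at 6h, 128, 149.8, 132 and 134 at 1d and 138, 135, 133 and 141 at 3d. Its 6h libraries were the lowest, with a log2 fold change of -0.60 ± 0.05 SE at 6h beside -0.32 ± 0.05 at 1d and -0.31 ± 0.05 at 3d (adjusted p = 2.53e-08, 8.12e-06 and 2.35e-05).

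Bbs5 (chr2:69646848-69667571), a lipid-binding subunit, passed the test at the later times only. It was 74.7 to 97.8 CPM in NB and 75.4, 81.4 and 78.8 at 6h, inside the NB range (log2 fold change -0.13 ± 0.08 SE, adjusted p = 0.246). All 6h libraries were deep. In the deeper NB libraries Bbs5 was higher than in the shallower ones by 0.24 on the log2 scale (limma adjusted p = 0.18). How far depth bore on its 6h result was not tested. It was 49.6, 59.5, 65.1 and 54.2 CPM at 1d and 50.6, 55.2, 49.1 and 49.8 at 3d, below every NB library. The log2 fold changes there were -0.59 ± 0.08 SE and -0.74 ± 0.08 SE (adjusted p = 2.85e-06 and 5.54e-07). Bbs2, the remaining subunit gene, was lower at all 3 times, with log2 fold changes of -0.25 ± 0.07 SE, -0.74 ± 0.07 and -0.55 ± 0.07.

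**Figure D2:**
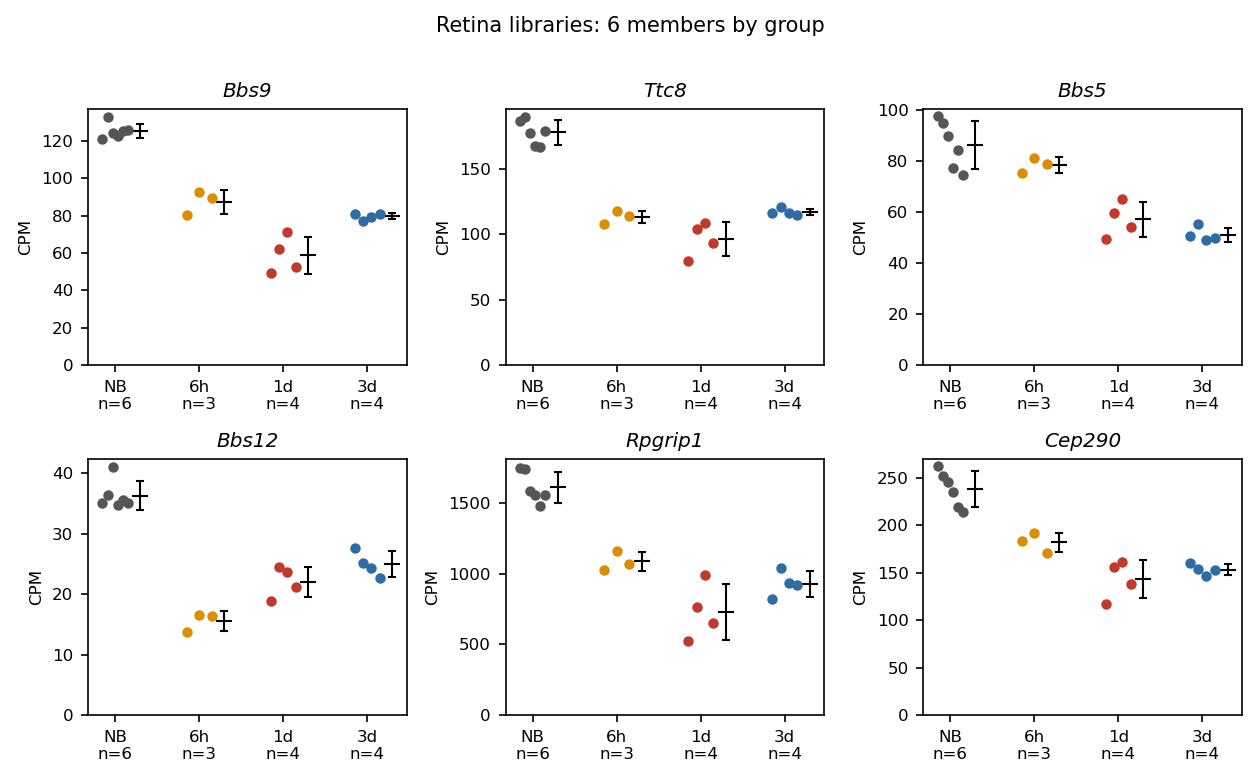
CPM in each retina library for 6 genes by group (points), with the mean and SD beside them. Bbs9, Ttc8 and Rpgrip1 have their lowest mean at 1d, Bbs12 at 6h and Bbs5 at 3d, and in Cep290 no later library reaches the NB range.

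The gene of the GTPase that recruits the BBSome went the other way. Arl6 (chr16:59612949-59639409) was 103 to 127 CPM in NB retina and 112, 129 and 131 at 6h, which overlapped. At 1d it was 199, 258, 243 and 228 CPM, above every other retina library, and at 3d it was 126, 119, 109 and 116, inside the NB range. The log2 fold change at 1d was 0.98 ± 0.07 SE (adjusted p = 9.25e-10), and 3d was lower than 1d (-0.97 ± 0.08 SE, adjusted p = 1.9e-08). The span of Arl6 overlaps a non-coding gene, and whether the reads were counted by strand is not given in the sources used here.

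The chaperonin-like genes, whose products help assemble the BBSome, were lower in 2 of 3 cases at each time. Bbs12 (chr3:37312547-37321450) ranged from 34.8 to 40.9 CPM with a median of 35.3 in NB retina. It was 13.7, 16.6 and 16.3 CPM at 6h, 18.8, 24.4, 23.6 and 21.1 at 1d and 27.7, 25.1, 24.4 and 22.7 at 3d. The 6h libraries were below those of every other group, and the log2 fold changes were -1.20 ± 0.09 SE, -0.71 ± 0.08 and -0.53 ± 0.08 (adjusted p = 3.92e-09, 3.38e-07 and 2.76e-05). Bbs10 (chr10:111298679-111301736) was 15.6 to 18.5 CPM in NB, 13.9, 11.9 and 12.8 at 6h, 9.51, 13.99, 11.3 and 9.44 at 1d and 13.95, 16.4, 14.2 and 14.9 at 3d. It passed the test at 6h and 1d but overlapped with NB at 3d (log2 fold changes -0.40 ± 0.11 SE, -0.62 ± 0.10 and -0.20 ± 0.10, adjusted p = 0.00664, 2.45e-05 and 0.108). Mkks was lower at 3d alone (-0.50 ± 0.09 SE, adjusted p = 0.000169), beside -0.05 ± 0.10 at 6h and -0.20 ± 0.09 at 1d. Its span overlaps that of a coding gene, Slx4ip.

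The 3 connecting cilium genes were lower at all 3 times, with medians of -0.39, -0.79 and -0.63 on the log2 scale. Rpgrip1 (chr14:52104241-52161339), which codes for the anchor that holds the Rpgr protein in the connecting cilium, ranged from 1480.3 to 1751 CPM with a median of 1573 in NB retina. It was 1030.3, 1163 and 1070.3 CPM at 6h, 525, 762, 991 and 651 at 1d and 822, 1042, 938 and 918 at 3d. All later libraries were below NB, and the 1d libraries spread the most. The log2 fold changes were -0.57 ± 0.13 SE, -1.18 ± 0.12 and -0.80 ± 0.12 (adjusted p = 0.00201, 1.01e-07 and 2.8e-05). The 1d libraries kept 1 order in Rpgrip1 and in the rod marker sum, from 525 and 25970 CPM through 651 and 30114.5, then 762 and 36254, to 991 and 44427.

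Cep290 (chr10:100487548-100575671), which codes for a protein linking the microtubules of the transition zone to its membrane, ranged from 214 to 263 CPM with a median of 241 in NB. It was 184, 192 and 171 CPM at 6h, 117, 156, 161 and 138 at 1d and 160.5, 154, 147 and 153 at 3d, below NB throughout. The log2 fold changes were -0.38 ± 0.08 SE, -0.74 ± 0.07 and -0.63 ± 0.07 (adjusted p = 0.00112, 9.79e-08 and 2.42e-06). Rpgr (chrX:10158216-10216795), whose product is a GTPase regulator of the connecting cilium, was 63.7 to 99.4 CPM in NB, 57.6, 61.8 and 54.4 at 6h, 37.8, 47.9, 47.02 and 42.5 at 1d and 59.1, 56.9, 52.9 and 54.2 at 3d. No later library reached the lowest NB value (log2 fold changes -0.39 ± 0.11 SE, -0.79 ± 0.10 and -0.45 ± 0.10, adjusted p = 0.00755, 1.44e-06 and 0.00114). Rpgr was also the only 1 of the 32 that differed between the deeper and shallower NB libraries of the retina, higher in the deeper ones by 0.42 on the log2 scale (adjusted p = 0.0272).

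**Figure D3:**
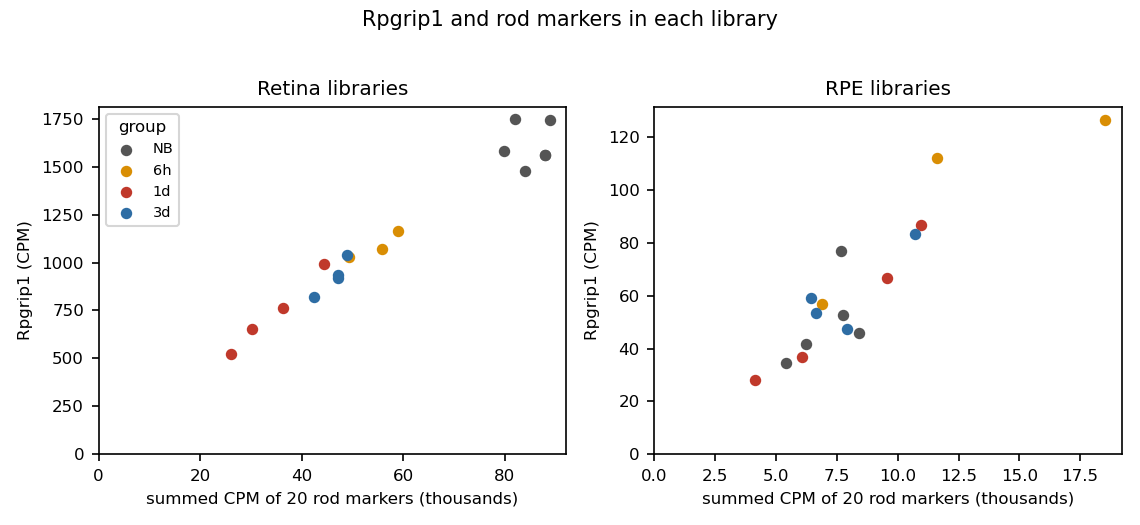
Rpgrip1 (CPM) against the summed CPM of 20 rod markers in each library, retina left and RPE right, coloured by group. NB retina libraries hold both highest levels, the 1d retina libraries reach lowest, and in RPE the 6h libraries span 56.7 to 127 CPM of Rpgrip1.

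The IFT genes moved less. Of the 3 IFT-A genes, 2 were lower at 6h and 3 at 1d and 3d, with medians of -0.28, -0.38 and -0.26 on the log2 scale. Of the 7 genes of the IFT-B core, 5, 4 and 3 were lower, with medians of -0.34, -0.14 and -0.13. Of the 6 peripheral IFT-B genes, 4 were lower at 6h, 5 were lower and 1 higher at 1d, and 5 were lower at 3d, with medians of -0.20, -0.26 and -0.22. Ift122, an IFT-A gene, had the lowest value of the IFT genes at 1d (-0.73 ± 0.06 SE, adjusted p = 5.37e-09), followed by Ift81, whose product carries tubulin (-0.61 ± 0.06 SE, adjusted p = 4.77e-08). Ift88, a core gene needed to build outer segments in mice, was not past the test at 6h (-0.22 ± 0.09 SE) and was lower at 1d and 3d (-0.50 ± 0.08 and -0.54 ± 0.08 SE).

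The remaining IFT genes Ift20, Ift52, Ift74, Ift80, Ift140, Ift172, Cluap1 and Traf3ip1 had log2 fold changes between -0.49 and -0.09 over the 3 times. Ift20, Ift74, Ift80, Ift172 and Cluap1 were lower at each time, Ift140 and Traf3ip1 at 1d and 3d, and Ift52 at 6h and 1d. The 6h call of Ift80 was lost in 11 of 18 alternative settings (log2 fold changes of -0.16 to -0.11, adjusted p up to 0.149). The 1d call of Ift52 was lost in 9 of 19, with a change above 0 when scaled to the library total. The spans of Ift74, Ift122, Ift140 and Cluap1 each overlap that of another coding gene, as do those of Cep290 and Rpgrip1.

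Some IFT genes passed the test at 6h alone. Ift27 (chr15:78159460-78174081), which codes for a GTPase-like subunit, was 17.1 to 23.8 CPM in NB, 13.9, 13.1 and 15.8 at 6h, 16.9, 18.9, 16.8 and 19.7 at 1d and 18.8, 19.8, 17.4 and 19.7 at 3d. Its 6h libraries did not overlap with NB (-0.45 ± 0.11 SE, adjusted p = 0.00264), and against the deeper NB libraries alone that call did not hold. Ift22, another GTPase-like subunit gene, had log2 fold changes of -0.51 ± 0.07 SE at 6h (adjusted p = 1.69e-05), -0.08 ± 0.07 at 1d and 0.05 ± 0.07 at 3d. Ift43 (chr12:86082561-86162459), an IFT-A gene, was 20.4 to 25.2 CPM in NB and 14.8, 17.3 and 15.6 at 6h, 19.2, 19.8, 21.5 and 20.9 at 1d and 18.9, 19.4, 18.8 and 20.4 at 3d. It was lower at all 3 times (-0.54 ± 0.07 SE, -0.20 ± 0.07 and -0.26 ± 0.07, adjusted p = 1.07e-05, 0.0182 and 0.00334), although its 1d and 3d values overlapped with NB.

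Ift46, Kif3a and Wdpcp passed the test in the retina at none of the 3 times on the deposited scaling. Kif3a codes for a subunit of the kinesin that drives IFT outward, and its log2 fold changes were 0.08 ± 0.06 SE, -0.06 ± 0.05 and -0.01 ± 0.05. Wdpcp (chr11:21571969-21898687), a planar polarity effector gene, was 7.95 to 9.43 CPM in NB, 7.04, 8.29 and 7.95 at 6h, 7.74, 9.23, 8.20 and 9.35 at 1d and 7.64, 9.52, 9.01 and 8.77 at 3d, with overlap at every time. Ift46, a core IFT-B gene, had log2 fold changes between -0.13 and -0.04. CPM values are not divided by gene length, so a higher CPM of 1 gene than of another is not a higher level per length.

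Ift57 (chr16:49699294-49765126), a peripheral IFT-B gene, was the exception among the IFT genes at 1d. It was 22.5 to 27.3 CPM in NB retina and 25.5, 22.6 and 24.5 at 6h. It was 36.7, 37.1, 35.3 and 40.4 CPM at 1d and 25.3, 26.7, 26.2 and 24.9 at 3d. The 1d libraries lay above all others and the 3d libraries inside the NB range. Its log2 fold change at 1d was 0.57 ± 0.06 SE (adjusted p = 1.11e-07), and 3d was lower than 1d (-0.53 ± 0.06 SE, adjusted p = 5.37e-06). At 3d it did not pass against NB (0.04 ± 0.06 SE), whereas scaled to the library total it did, higher by 0.19 on the log2 scale.

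Between 1d and 3d in the retina, 9 of the 32 genes were higher and 4 lower at 3d, where 9.79% of all genes were higher and 11.6% lower. The 9 were Bbs1, Bbs9, Bbs10, Ttc8, Ift81, Ift122, Ift140, Rpgr and Rpgrip1. All 9 had been lower than NB at 1d, and 8 of them, all but Bbs10, were still lower than NB at 3d. Bbs9 had the largest rise (0.45 ± 0.08 SE, adjusted p = 0.00038), and Rpgrip1 one with a larger error (0.38 ± 0.13 SE, adjusted p = 0.0432). Besides Arl6 and Ift57, Mkks (-0.30 ± 0.10 SE, adjusted p = 0.0313) and Traf3ip1 (-0.24 ± 0.08 SE, adjusted p = 0.0392) were lower at 3d than at 1d. Of 17 alternative settings, 11 lost the call of Ift140, 9 that of Rpgrip1, 8 that of Traf3ip1, 6 that of Mkks, and 4 each those of Ift81 and Rpgr, and the other 7 calls were lost in none. Of the 20 rod markers 16 were higher at 3d than at 1d and 0 lower. The count of 13 dropped to 8 without the first 1d library or without the second 3d library.

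In the RPE few of these genes passed the test. At 6h and at 3d limma called 0 of the 32, where 1.46% (0.808% higher and 0.652% lower) and 0.180% (0.162% higher and 0.0180% lower) of all 16712 tested genes were called. Unadjusted p-values under 0.05 were given to 3036 and 1659 of all genes. At 1d 3 were higher and 0 lower, beside 5.61% of all genes called, 1.77% higher and 3.84% lower. The medians of the 32 were 0.15 at 6h, -0.02 at 1d and 0.15 at 3d, beside 0.00 for all genes at each time. DESeq2 on the recovered reads called 3 at 6h, with Arl6 and Bbs5 higher and Ift140 lower, and Ift57 higher at 3d. Against the NB library of equal depth (n = 1), the 6h median was -0.06 and limma called 0, with that lone library assumed to vary like the other groups.

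Arl6 in the NB RPE libraries was 19.8, 17.4, 18.04, 17.5 and 16.4 CPM, at 6h 31.02, 22.7 and 38.1, at 1d 77.1, 52.4, 43.1 and 35.4 and at 3d 30.9, 26.9, 25.5 and 25.8. Every library of every later group was above every NB library. The test was passed at 1d (1.46 ± 0.18 SE, adjusted p = 0.000175) and not at 6h (0.73 ± 0.20 SE, adjusted p = 0.0745) or 3d (0.60 ± 0.18 SE, adjusted p = 0.312). The 3d libraries were lower than the 1d libraries (-0.86 ± 0.19 SE, adjusted p = 0.0165), a call lost in 3 of 17 alternative settings (adjusted p up to 0.0601), among them the fit of the compared groups alone and leaving out the second 3d library. The 1d libraries kept 1 order in Arl6 and in the rod marker sum, whose values were 10954, 9544, 6060 and 4153 CPM. In NB RPE that sum was 5411 to 8419 CPM. The 1d library with a sum of 4153, below that range, had Arl6 at 35.4 CPM, above every NB library. The part of rod RNA in the Arl6 level was not tested.

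Ift57 in NB RPE was 36.7, 26.2, 22.8, 16.9 and 22.3 CPM, with the deeper NB library highest. It was 22.8, 31.8 and 32.3 CPM at 6h, 114, 69.00, 55.8 and 94.1 at 1d and 43.9, 69.9, 45.7 and 47.5 at 3d. All 1d and 3d libraries lay above NB, and 6h overlapped. The log2 fold changes were 0.24 ± 0.25 SE, 1.71 ± 0.23 and 1.05 ± 0.23, of which 1d passed the test (adjusted p = 0.666, 0.000313 and 0.0967). Without the deeper NB library the 3d change passed (adjusted p = 0.0470). The spans of Arl6 and Ift57 overlap non-coding genes only.

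**Figure D4:**
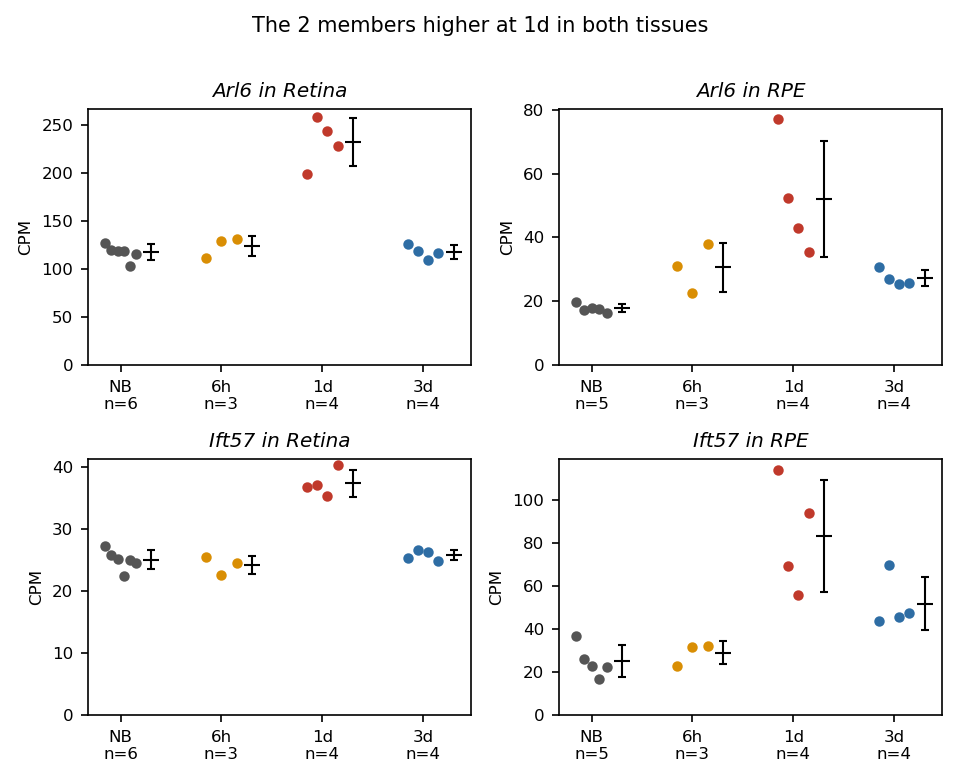
CPM of Arl6 (top) and Ift57 (bottom) in each retina library (left) and RPE library (right) by group, with mean and SD beside the points. In both tissues the 1d libraries lie above NB, and in RPE the 3d libraries do so as well.

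Ift43 in NB RPE was 13.3, 14.5, 13.8, 11.1 and 13.1 CPM, at 6h 11.3, 11.3 and 12.4, at 1d 23.03, 17.9, 14.9 and 18.2 and at 3d 16.2, 18.6, 14.6 and 17.3. All 1d and 3d libraries were above NB, and at 1d the test was passed narrowly (0.47 ± 0.12 SE, adjusted p = 0.0335). The call held in 8 of 18 alternative settings. Ttc8 was the other RPE gene to pass between times, higher at 3d than at 1d (0.53 ± 0.15 SE, adjusted p = 0.0485), with 22.9, 22.7, 20.7 and 18.8 CPM at 1d and 29.9, 36.8, 27.7 and 29.3 at 3d beside 35.4, 27.2, 24.00, 23.8 and 29.2 in NB. That call held in 5 of 17 settings. All 1d libraries of Ttc8 also lay below every NB library of RPE, and the change at 1d against NB did not pass the test. Between 1d and 3d in RPE 2 of the 32 were called, beside 6.58% of all genes, 4.92% higher and 1.66% lower.

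Rpgrip1, Bbs9 and Bbs12, which had large retinal changes, gave RPE groups that overlapped with NB. Rpgrip1 was 77.03, 45.7, 34.5, 52.6 and 41.9 CPM in NB RPE, 112, 56.7 and 127 at 6h, 86.7, 66.8, 36.7 and 28.00 at 1d and 83.5, 59.1, 53.4 and 47.2 at 3d. Its highest libraries were the third and first of 6h, which also had the highest rod marker sums in RPE, 18501 and 11596 CPM. Bbs9 was 19.8, 23.7, 17.1, 26.5 and 20.3 CPM in NB, 27.4, 18.5 and 27.5 at 6h, 27.5, 22.5, 18.2 and 16.3 at 1d and 26.3, 18.1, 21.6 and 22.01 at 3d. Bbs12 was 8.90, 5.97, 7.06, 5.59 and 7.44, 6.32, 7.29 and 9.73, 6.86, 7.56, 6.02 and 4.28 and 7.56, 8.13, 7.91 and 6.32 CPM in the same order. These 3 had adjusted p-values of 0.172 or more in RPE against NB.

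Cep290 was 34.2, 23.1, 21.8, 20.2 and 21.9 CPM in NB RPE, 33.8, 30.3 and 37.2 at 6h, 29.6, 22.03, 18.9 and 26.3 at 1d and 27.4, 27.4, 25.03 and 23.2 at 3d. The deeper NB library stood with the 6h libraries and above the other NB libraries. Bbs7 gave 19.3, 10.8, 11.6, 9.86 and 10.9 CPM in NB and 17.7, 13.05 and 19.98 at 6h, with the same split by depth. Bbs5 was 11.03, 7.07, 5.18, 8.31 and 6.29 CPM in NB and 12.9, 9.89 and 18.98 at 6h (0.83 ± 0.24 SE, adjusted p = 0.0855). Without the deeper NB library, 5 of the 32 were called higher at 6h: Arl6, Bbs5, Cep290, Ift88 and Rpgr. All 3 of the 6h libraries are deep, so that with this library left out depth and time cannot be told apart.

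Wdpcp, Bbs10 and Ift27 did not pass the test in RPE. Wdpcp was 10.4, 11.5, 12.2, 12.3 and 11.97 CPM in NB RPE, 8.59, 11.9 and 9.62 at 6h, 13.6, 12.8, 10.6 and 11.3 at 1d and 15.3, 11.9, 12.3 and 11.9 at 3d. Bbs10 was 7.99, 6.34, 6.51, 4.27 and 5.83 CPM in NB and 6.03 to 7.36, 3.41 to 6.23 and 5.56 to 8.42 at the later times. Ift27 was 11.3, 13.3, 14.98, 12.7 and 11.6 CPM in NB and 11.2 to 13.1, 13.04 to 19.1 and 12.7 to 16.6 later.

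The level in NB RPE as a share of that in NB retina ranged widely, as a description across tables that were normalized separately. It was 3.12% for Rpgrip1, 8.76% for Bbs5, 9.11% for Rpgr, 9.14% for Bbs7 and 10.2% for Cep290. The other BBSome subunit genes lay between 14.2% (Bbs4) and 18.2% (Bbs1), and Arl6 was at 15.2%. Ift46, Ift57, Ift22, Ift52 and Wdpcp were at 97.6%, 99.6%, 109%, 116% and 132%. The roles overlapped: the IFT-B core genes ran from 16.4% (Ift81) to 116%, the peripheral IFT-B genes from 22.8% (Ift80) to 99.6%, the IFT-A genes from 32.6% (Ift122) to 56.2% (Ift43) and the chaperonin-like genes from 19.3% (Bbs12) to 62.5% (Mkks). The median over the 32 was 28.2%. The 20 rod markers had a median of 7.76% and a range of 3.68% to 32.2%, and how much of the RPE level of these genes came with rod RNA was not tested.

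The difference between the tissues was tested in 1 fit of both, as the change in retina minus the change in RPE, each against its own NB. The fit treated retina and RPE libraries as independent, and whether any came from the same mouse was not tested. The difference passed the test below 0 for 15 of 32 genes at 6h, 17 at 1d and 19 at 3d, and above 0 for 0 at each time. By sign alone, passing or not, it was below 0 for 28, 31 and 31 of the 32. Of all 15105 genes, 9.0%, 9.66% and 6.26% passed below 0 and 8.56%, 12.1% and 5.93% above. All 3 connecting cilium genes passed below 0 at each time, as did 6, 5 and 7 of the 7 BBSome subunit genes. Scaled to the library total, 16, 9 and 10 of the 32 passed below 0. The higher share of all calls then went from 55.6% to 82.9% at 1d and from 48.6% to 78% at 3d.

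Rpgrip1 had the largest difference at each time: -1.50 ± 0.39 SE, adjusted p = 0.00773 at 6h, -1.20 ± 0.35 SE, adjusted p = 0.0141 at 1d and -1.09 ± 0.35 SE, adjusted p = 0.0419 at 3d. The 3d call was lost in 16 of 28 alternative settings (adjusted p up to 0.101). At 6h the log2 fold change of Rpgrip1 was -0.57 in retina and 0.93 in RPE, where it did not pass. At 6h it was followed by Bbs12 (-1.34 ± 0.21 SE, adjusted p = 4.84e-05), Bbs7 (-1.03 ± 0.24 SE, adjusted p = 0.00408) and Bbs4 (-0.97 ± 0.21 SE, adjusted p = 0.00163). With NB libraries of equal depth only, which leaves 1 NB library in RPE whose spread is taken from the other groups, 2 of 32 passed at 6h, Bbs12 (-0.97, adjusted p = 0.0399) and Ift22 (-0.83, adjusted p = 0.010), and Rpgrip1 was at -0.96 (adjusted p = 0.313). In the same setting 19 passed at 1d and 20 at 3d. Leaving out the third RPE 6h library, that with the highest rod marker sum, left 9 at 6h.

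At 1d Ift57 rose in both tissues and rose more in RPE (-1.14 ± 0.24 SE, adjusted p = 0.000787), and the same held at 3d for the difference (-1.01 ± 0.24 SE, adjusted p = 0.00566). Arl6 rose in both tissues at 1d with a difference that did not pass (-0.48 ± 0.20 SE, adjusted p = 0.0787). The Arl6 difference did pass at 6h (-0.66) and at 3d (-0.59). Those calls were lost in 6 of 26 and in 20 of 28 alternative settings. Bbs9 and Bbs5 completed the 4 largest differences at 1d (-1.07 ± 0.19 SE, adjusted p = 0.000117 and -0.88 ± 0.23 SE, adjusted p = 0.00609), and Bbs5 and Bbs7 those at 3d (-0.96 ± 0.23 SE, adjusted p = 0.00673 and -0.76 ± 0.22 SE, adjusted p = 0.0251). The count at 1d was 9 without the first retina 1d library and 10 without the first RPE 1d library. Of the 20 rod markers, 19, 19 and 13 had differences that passed the test below 0, and the medians of the 20 were -1.30, -1.35 and -1.04.

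In the authors' deposited table, after Benjamini-Hochberg adjustment, 1 of the 32 passed in retina at 6h (Bbs12), 11 at 1d (10 lower and Arl6 higher) and 1 at 3d (Bbs5), beside 5.03%, 10.9% and 4.21% of all its genes. In the authors' deposited table for RPE, Arl6 and Ift57 passed at 1d and 0 at 6h and 3d, beside 1.29%, 0.0538% and 0.0778% of all its genes. All of these were also called by limma here in the same direction. Read from its headers, the p-values of the authors' deposited table appear to come from a test for changes beyond a set fold. The headers do not name the test, and that fold is not given in the sources used here.

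Genes that work with these complexes were read from lists. Their counts are to be read beside the shares of all tested genes. In retina these were 18.5%, 27.5% and 23.9% lower and 16.9%, 24.0% and 19.3% higher at 6h, 1d and 3d. In RPE 1.46%, 5.61% and 0.180% of all tested genes were called. Of 8 BBSome partner genes, 4, 4 and 3 were lower in retina at 6h, 1d and 3d and 0, 2 and 1 higher. Lztfl1, which codes for a regulator of BBSome entry into cilia, fell at 1d from 108 to 70.00 CPM, log2 fold change -0.63 ± 0.05 SE, adjusted p = 6.88e-09. Bbip1, which codes for a further BBSome subunit, fell at 6h from 53.5 to 37.2 CPM, log2 fold change -0.52 ± 0.06 SE, adjusted p = 1.17e-06. Trim32, a ubiquitin ligase gene, was higher at 3d from 67.97 to 80.8 CPM, log2 fold change 0.25 ± 0.05 SE, adjusted p = 0.000248. In RPE at 1d 1 of the 8 was higher, Cct3, a subunit gene of the cytosolic chaperonin (from 111 to 136 CPM, log2 fold change 0.29 ± 0.08 SE, adjusted p = 0.034).

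Of 19 other IFT and motor genes in the retina table, 9, 13 and 10 were lower and 4, 3 and 3 higher. Tulp3, whose product carries receptors into cilia with IFT-A, rose at each time, at 1d from 25.3 to 43.4 CPM, log2 fold change 0.76 ± 0.07 SE, adjusted p = 1.52e-08. Wdr60, which codes for a chain of the return dynein, fell at 1d from 96.9 to 53.3 CPM, log2 fold change -0.87 ± 0.07 SE, adjusted p = 9.58e-09, and Kif3b, the partner of Kif3a, fell at 3d from 151 to 104 CPM, log2 fold change -0.54 ± 0.06 SE, adjusted p = 7.29e-07. In RPE at 1d 1 of 18 was lower, the IFT-A gene Wdr19 (from 16.6 to 10.7 CPM, log2 fold change -0.57 ± 0.16 SE, adjusted p = 0.045).

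Of 19 transition zone genes, 8, 14 and 12 were lower in retina and 1, 0 and 0 higher. Cc2d2a, a gene of the transition zone membrane complex, fell at 1d from 166 to 93.4 CPM, log2 fold change -0.84 ± 0.09 SE, adjusted p = 2.01e-07. In RPE 0 of the 19 passed against NB at any time. Of 13 genes of lipidated cargo and small GTPase transport, 9, 8 and 8 were lower in retina and 0, 1 and 0 higher. Arl3, the GTPase gene of cargo release in cilia, fell at 1d from 175 to 114 CPM, log2 fold change -0.61 ± 0.05 SE, adjusted p = 1.73e-09, and Rabgef1, which codes for a Rab exchange factor, fell from 627 to 159.6 CPM, log2 fold change -2.03 ± 0.13 SE, adjusted p = 3.17e-10. In RPE at 6h Tub, a relative of Tulp3, was the 1 gene of the list to pass (from 23.1 to 67.3 CPM, log2 fold change 1.48 ± 0.34 SE, adjusted p = 0.0418).

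Of 17 axoneme and connecting cilium genes, 7, 12 and 11 were lower in retina and 3, 2 and 0 higher. Fam161a, a microtubule-associated gene of the connecting cilium, fell at 1d from 368 to 148 CPM, log2 fold change -1.34 ± 0.10 SE, adjusted p = 1.02e-09, and Rp1l1, which codes for an axoneme protein, fell from 986 to 459.9 CPM, log2 fold change -1.12 ± 0.09 SE, adjusted p = 4.95e-09. Ttll5, a gene of tubulin glutamylation, was higher at 6h from 53.9 to 70.7 CPM, log2 fold change 0.39 ± 0.07 SE, adjusted p = 0.000181. In RPE Cep78 fell at 1d from 20.9 to 11.6 CPM, log2 fold change -0.79 ± 0.17 SE, adjusted p = 0.0111, and at 6h Cep164 and Mak were higher, Mak from 14.6 to 45.2 CPM, log2 fold change 1.54 ± 0.36 SE, adjusted p = 0.0464. Rp1 stands in this list and among the rod markers.

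Of 7 transcription factor genes tied to cilia, 1 was higher and 1, 2 and 2 were lower in retina at 6h, 1d and 3d. These counts were near the shares of all genes, 16.9%, 24.0% and 19.3% higher and 18.5%, 27.5% and 23.9% lower. The higher one was at each time Rfx2, an activator that binds the X-box. At 6h it rose from 8.51 to 18.4 CPM, log2 fold change 1.06 ± 0.10 SE, adjusted p = 1.79e-07. At 1d it rose from 8.51 to 48.1 CPM, log2 fold change 2.43 ± 0.09 SE, adjusted p = 1.24e-13, and at 3d it was at 18.2 CPM, lower than at 1d (log2 fold change -1.37 ± 0.10 SE, adjusted p = 9.86e-09) and higher than NB. Of the genes with the X-box promoters printed above, Bbs7 fell and Ift57 rose in these libraries at 1d. In RPE Rfx2 did not pass at any time (at 1d 0.53 ± 0.26 SE, adjusted p = 0.255). Rfx3, a further factor of the family, fell in retina at 1d from 59.5 to 48.02 CPM, log2 fold change -0.31 ± 0.07 SE, adjusted p = 0.000649.

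Markers of other cells moved in the retina at the same times. Of all tested retina genes, 16.9%, 24.0% and 19.3% were higher and 18.5%, 27.5% and 23.9% lower at 6h, 1d and 3d. The 14 microglia and macrophage markers summed to 61.5 to 81.2 CPM in NB, 65.3 to 78.1 at 6h, 77.8 to 95.1 at 1d and 225 to 262 at 3d, with 12 of 14 higher at 3d. The 12 Muller glia markers summed to 5637 to 6599 CPM in NB, 5276 to 6444 at 6h, 4586 to 5512 at 1d and 7815 to 8606 at 3d. Of the 12, 4 were higher and 3 lower at 6h, 5 higher and 4 lower at 1d, and 10 higher and 0 lower at 3d. In NB RPE the same 12 summed to 8682 to 12722 CPM, above their NB retina sums. Rlbp1 stands among both the Muller glia and the RPE markers. The RPE markers in retina were higher in 11, 3 and 7 of 19 cases and lower in 1, 5 and 1 at 6h, 1d and 3d, with sums of 1600 to 1827 CPM in NB, 1966 to 2435, 1504 to 1633 and 1892 to 2259. Inner retinal neuron markers, which share Trpm1 with the RPE markers, were higher in 4, 8 and 12 of 20 cases and lower in 3, 4 and 1. Markers of choroid endothelium, fibroblasts and ciliary body were higher in 0, 5 and 7 of 11 cases and lower in 0. Of the multiciliated cell markers 5 were in the retina table, with a sum of 25.1 to 52.8 CPM over all libraries, and Dnah5, Dnai1, Mcidas, Rsph1 and Tekt2 were not in it. In RPE, RPE markers were lower at 1d in 9 of 20 cases and higher in 1. Their part in the results on the 32 genes was not tested.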

How the data were processed

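RNA libraries of retina and RPE from Abca4-/- Rdh8-/- mice were used (33 in all). The 34 ATAC libraries were left out. GRCm38 and the tools STAR, Trimmomatic and edgeR are named without versions or order, per the submitters' processing notes. The read counter and the filter on low genes are not given in the sources used here. Per the file headers and the values, each deposited signal value is a CPM, computed by the authors with an effective library size and separately for retina and RPE. Every value was a whole multiple of 1 read within 0.01 of a read, so reads and depths were recovered (9.45 to 32.4 M per library). Intervals from depth would cover counting error only. The authors also deposited a log2 fold change shrunk by a prior count, per the file headers, and an unadjusted p-value for each gene and time against NB.

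Tests ran in limma 3.58.1 (R 4.3.3) on the log2 of CPM plus 0.5 (all groups of a tissue in 1 fit, variance trend, Benjamini-Hochberg, threshold 0.05), after dropping genes that did not reach a CPM of 1 in 3 or more libraries, which kept 16926 genes of retina and 16712 of RPE. The added 0.5 understates changes of low genes. For the difference between tissues, retina and RPE entered 1 joint fit (15105 genes) with no term for the mouse. NB columns could be matched to the group but not to single samples, and the letters A (deeper) and B were given here. Scripts were tested on simulated data.

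The 32 genes, the pathway and marker lists and the rule for named genes were chosen with earlier results of these data known. Library values are given for genes with the 6 largest called changes at a time, the 3 highest and 3 lowest in NB retina by CPM (not per length), and the 4 largest tissue differences. From each list up to 2 called genes with the smallest adjusted p are named per comparison, and not all that met the rule are reported. Bbs2, Mkks, Kif3a, Traf3ip1 and the other IFT genes given by fold changes alone, and Ttc8 between times in RPE, were singled out after their values were seen. The alternatives tried were other pseudocounts (0.1 and 2), library totals, TMM rescaling, no filter, edgeR 4.0.16, DESeq2 1.42.0, fits of the compared groups alone, NB of equal depth, a replicate block, and leaving out each library. Promoters and gene spans are from RefSeq on GRCm38.p6.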

Additional observations from a re-analysis of the deposited data

Results flagged for a closer look

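In 14 of 192 sets of libraries (7.29%) 1 library of a group stood far from the rest by its gap to the nearest other library. Chance gives such a gap in about 1 of 20 groups. The deeper NB library of RPE stood above the other 4 NB libraries in 5 genes: Bbs4 at 30.5 CPM (next 23.7), Bbs7 at 19.3 (next 11.6), Cep290 at 34.2 (next 23.1), Ift88 at 15.9 (next 10.6) and Rpgr at 10.3 (next 6.56). Its rod marker sum of 7677 CPM was inside the range of the other NB libraries.

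In RPE the shallower NB library B3 had Ift52 at 64.7 CPM. At 3d in RPE, the second library had Ift57 at 69.9 CPM and Ift140 at 34.2, the third had Ift122 at 26.2, below the others, and the first had Wdpcp at 15.3. In retina the second 3d library had Bbs1 at 133 CPM, the NB library B1 had Bbs12 at 40.9, the first 1d library had Cluap1 at 17.2, below the others, and the second 1d library had Ift22 at 31.6.

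The response in retina differed from that in RPE in 15 genes at 6h, 17 at 1d and 19 at 3d, all with the retina change below the RPE change. At 6h the largest differences on the log2 scale were -1.50 for Rpgrip1, -1.34 for Bbs12, -1.03 for Bbs7 and -0.97 for Bbs4. At 1d they were -1.20 for Rpgrip1, -1.14 for Ift57, -1.07 for Bbs9 and -0.88 for Bbs5. At 3d they were -1.09 for Rpgrip1, -1.01 for Ift57, -0.96 for Bbs5 and -0.76 for Bbs7. Ift57 had risen in both tissues at 1d, and the other genes were lower in retina where they passed the test there. At 6h Rpgrip1 was at -0.57 in retina and at 0.93 in RPE, where it did not pass. All 7 BBSome subunit genes were above 0 in RPE at 6h, by 0.09 to 0.83, and 0 of them passed there. These RPE changes set deep 6h libraries against NB libraries of which all but A1 were shallower. With NB of equal depth only, a lone library in RPE, the Rpgrip1 difference at 6h was -0.96.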

How the results depend on the processing

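Counts of called genes in retina against NB stayed within 1.5 times under all alternatives. Leaving out 1 library gave 20 to 22 at 6h, 25 to 26 at 1d, 22 to 24 at 3d and 8 to 14 for 3d against 1d. In RPE it gave 0 to 5 at 6h, 2 to 4 at 1d, 0 to 1 at 3d and 0 to 2 for 3d against 1d. For the tissue differences it gave 9 to 19 at 6h, 9 to 19 at 1d and 14 to 23 at 3d. In RPE the 6h count (0) was 5 without NB library A1, 2 without the second 6h library, 3 with DESeq2 and 1 in a fit of the compared groups alone. The 3d count in RPE (0) was 1 with DESeq2, without NB library A1, and against NB of equal depth. For RPE 3d against 1d the count (2) was 1 with a pseudocount of 2, library totals, edgeR or the compared groups alone, 0 without the second 3d library, and 1 without any other library of these groups except the third of 1d. The tissue difference at 6h (15) was 2 with NB of equal depth, at 1d (17) it was 9 with library totals and 11 with the compared groups alone, and at 3d (19) it was 10 with library totals. The cause was not tested. Ift52 in retina at 1d reversed to 0.0242 with library totals (adjusted p = 0.746). With the replicate block for 3d against 1d, 10 of the 32 were called in retina (13 without) and 0 in RPE (2 without). Equal numbers at 1d and 3d within a tissue did not deviate together (correlations of -0.32, 0.23, -0.24 and 0.18 in retina and -0.04, 0.16, 0.09 and 0.13 in RPE). These are libraries of different mice, and a pairing of retina with RPE was not tested. No paired analysis was possible against NB because its columns carry no usable numbers. With library totals, the higher share of all calls was 81% in place of 55.3% at 6h in RPE.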
